A study of Mus musculus with 4 samples.

Results

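Natural killer (NK) cells of mouse mammary tumors numbered 211 among 23572 cells in 4 single-cell RNA libraries. They were chosen by measured values. A cell needed at least 1000 unique molecular identifiers (UMIs, each marking 1 captured RNA molecule), no more than 20% of them mitochondrial. It needed 2 or more UMIs summed over Ncr1, Klrb1c and Klre1, which encode NK cell receptors. It could hold no more than 1 UMI summed over Cd3d, Cd3e and Cd3g, and none of Cd8b1. Per 10000 UMIs it also had to hold fewer than 10 of the macrophage genes C1qa, C1qb and C1qc and fewer than 10 of the epithelial genes Epcam, Krt8 and Krt18. For comparison, 662 CD8 T cells were chosen by 2 or more UMIs of the Cd3 genes and 1 or more of Cd8a or Cd8b1.

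Each library was taken as the tumor of 1 mouse at 4 months. The labels name a tumor, a genotype and a replicate number, and neither they nor the methods state the number of mice per library. All 4 mice carried the PyMT oncogene and the floxed allele Frmd8 fl/fl. The 2 Cre- mice (replicates 1 and 3) lacked Cre, so that Frmd8 stayed intact. The 2 Cre+ mice (replicates 2 and 4) carried MMTV-Cre, in which a mammary tumor virus promoter drives Cre, chiefly in mammary epithelium. Any Cre activity in NK cells was not given in the labels or methods. Cells were sorted by flow cytometry before capture and the sort gate was not stated, so that shares of cells are shares of what was sorted. The labels name 1 genotype per library and no batch. The libraries of replicates 1 to 3 listed called cells from Cell Ranger 6.1.2, and that of Cre+ replicate 4 listed all barcodes from Cell Ranger 4, which for that mouse cannot be told apart from the mouse itself.

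NK cells are innate lymphocytes that kill tumor or infected cells without a rearranged antigen receptor. They weigh activating receptors, such as NKG2D (Klrk1) and the activating Ly49 proteins, against inhibitory receptors that read MHC class I, and signal through adaptors such as DAP12 (Tyrobp). On activation they release perforin and granzymes and secrete interferon gamma and chemokines that attract dendritic and T cells. Conventional NK cells depend on the transcription factors T-bet (Tbx21) and Eomes, whereas the related type 1 innate lymphoid cells of tissues usually lack Eomes and carry the integrin Itga1.

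Values are given below in the order Cre- 1, Cre- 3, Cre+ 2 and Cre+ 4 of the replicates. The libraries held 37, 32, 37 and 105 NK cells, with a median depth of 9045, 8578, 9710 and 17066 UMIs. Cre+ replicate 4 thus stood apart with the most NK cells and the deepest ones. The median depth of CD8 T cells, 8124.5, 6625, 7965 and 13730 UMIs, was also highest in that library. That of epithelial cells was lowest there, at 12337 UMIs against 22331, 20662 and 13497 in the others. The summed NK counts were 434700, 380554, 417811 and 1974714 UMIs, and genes are given below as UMIs per 1000000 of these sums (CPM). Whole libraries held 122658098, 126843597, 112729231 and 157662955 UMIs. No NK barcode occurred in more than 1 library, while 68 barcodes of all cells were shared by a pair of libraries.

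The gate was met with room in most members. The median member had 15 UMIs of Ncr1, Klrb1c and Klre1, 7 members had exactly 2, and 20 carried a single Cd3 UMI. Ncr1 was detected in 192, Klrb1c in 196 and Klre1 in 192 of the 211. At 2 UMIs there were 1, 3, 1 and 2 cells, with Nkg7 at 0, 97.4, 0 and 392 CPM. With exactly 1 UMI, just outside, there were 15, 26, 11 and 19 cells, with Nkg7 at 0, 4.40, 0 and 44.3 CPM. Members with 3 or more UMIs had Nkg7, a granule protein of killer lymphocytes, at 1644, 1292, 2232 and 1865 CPM. Members at this edge were therefore few and held less of this marker than the rest. The Cd3 and Cd8b1 limits left out more cells that met the receptor rule, 61, 33, 61 and 122 per library. Nkg7 in those cells was at 1876, 2045, 1985 and 1656 CPM, so this marker does not separate them from members. The perforin gene Prf1 was at 51.3, 80.6, 55.05 and 21.3 CPM in them, against 375, 204, 271 and 275 CPM in members with 3 or more UMIs. The receptor genes Tyrobp and Klrd1 were also lower in them in each library. The granzyme gene Gzma was lower in them in all libraries but Cre- replicate 1.

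Markers outside the gate were read as well. The receptor adaptor gene Tyrobp, the CD94 receptor gene Klrd1, Nkg7 and the perforin gene Prf1 were present in all 4 NK sums. They were also present in all 4 CD8 T sums, so that presence alone does not check the label. Tyrobp, Klrd1 and Prf1 were higher in NK cells, as given below. Nkg7 had a log2 difference of 0.11 ± 0.16 and did not pass (adjusted p = 0.857 in the edgeR quasi-likelihood test). A few members carried another lineage's genes. Of the 211, 13 had 20 or more UMIs per 10000 of the MHC class II genes Cd74 and H2-Ab1 (3, 7, 2 and 1 per library), 4 of these 13 had no Nkg7 UMI, and 2 members were high in collagen genes. The summed level of 7 dendritic cell markers in NK cells was 2917, 10091, 500.2 and 103 CPM, led by Cd74. It was 51.3, 99.0, 202 and 74.9 CPM once the 15 members high in MHC class II or collagen genes were left out. Cd74 was part of that cut, so a fall of this sum was set by it. The 4 fibroblast markers, Col1a1 and Col3a1 among them, summed to 23.0, 2373, 3190 and 14.2 CPM, the 2 high values being those of the libraries with a collagen-high member. The 7 macrophage markers, led by Apoe, summed to 87.4, 323, 258 and 208 CPM. The 5 neutrophil markers reached at most 7.18 CPM, with Csf3r at 0, and the 5 mast cell and basophil markers at most 1.52 CPM, with Cpa3, Fcer1a, Ms4a2 and Mcpt4 at 0. The 8 genes of gamma delta and NKT cells summed to 80.5, 84.1, 158 and 227 CPM in NK cells and to 293, 203, 381 and 399 CPM in CD8 T cells. In NK cells their delta chain gene Trdc was at 9.20, 44.7, 62.2 and 24.3 CPM, Tcrg-C2 was at 0, 0, 0 and 0.506 CPM, and none of the 8 was at 0 in all 4 libraries. No doublet caller was run, and the part of doublets in these values was not tested.

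Frmd8, the targeted gene, encodes a membrane-associated scaffold of the protease regulators iRhom1 and iRhom2. Its level in NK cells was 52.9, 55.2, 31.1 and 37.5 CPM, from 23, 21, 13 and 74 UMIs. Both Cre+ libraries lay below both Cre- libraries. In CD8 T cells it was 61.7, 43.5, 35.1 and 29.6 CPM and in epithelial cells 24.1, 24.3, 5.48 and 10.4 CPM, with the same order of genotypes. The log2 difference in NK cells, Cre+ minus Cre-, was -0.58 ± 0.35 (SE, 2 mice a genotype), with an adjusted p of 0.989 in the edgeR quasi-likelihood test. The reads are tags of the transcript's 3' end, outside the floxed part, so this level does not check the deletion.

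NK cells made up a small share of each library. The share was 0.752% (95% exact binomial interval 0.530 to 1.03) and 0.541% (0.370 to 0.762) in the Cre- libraries, and 0.660% (0.465 to 0.908) and 1.47% (1.21 to 1.78) in the Cre+ libraries. These intervals cover counting error only. The intervals of the other 3 libraries overlapped, and Cre+ replicate 4 lay above them all. Over 2 mice each, Cre- tumors averaged 0.646% ± 0.149 and Cre+ tumors 1.07% ± 0.576 (SD), a difference of 0.421 percentage points with p = 0.667 in a two-sided exact permutation test, in which 2 against 2 mice cannot go below 0.33. Without Cre+ replicate 4 the difference was 0.0134 points. Fewer NK cells and more of the other sorted cells cannot be told apart in such a share.

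Measured against CD8 T cells, the same library stood out. NK cells were 18.0%, 18.0%, 20.8% and 33.7% of the NK and CD8 T cells together, the last with an interval of 28.4 to 39.2%. Both Cre+ values lay above both Cre- values (27.2% ± 9.10 against 18.0% ± 0.0504, SD, n = 2 each). The difference of 9.21 points had p = 0.33 in the two-sided exact permutation test, the smallest the design allows. Without Cre+ replicate 4 it was 2.77 points and without Cre+ replicate 2 it was 15.6 points.

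**Figure D1:**
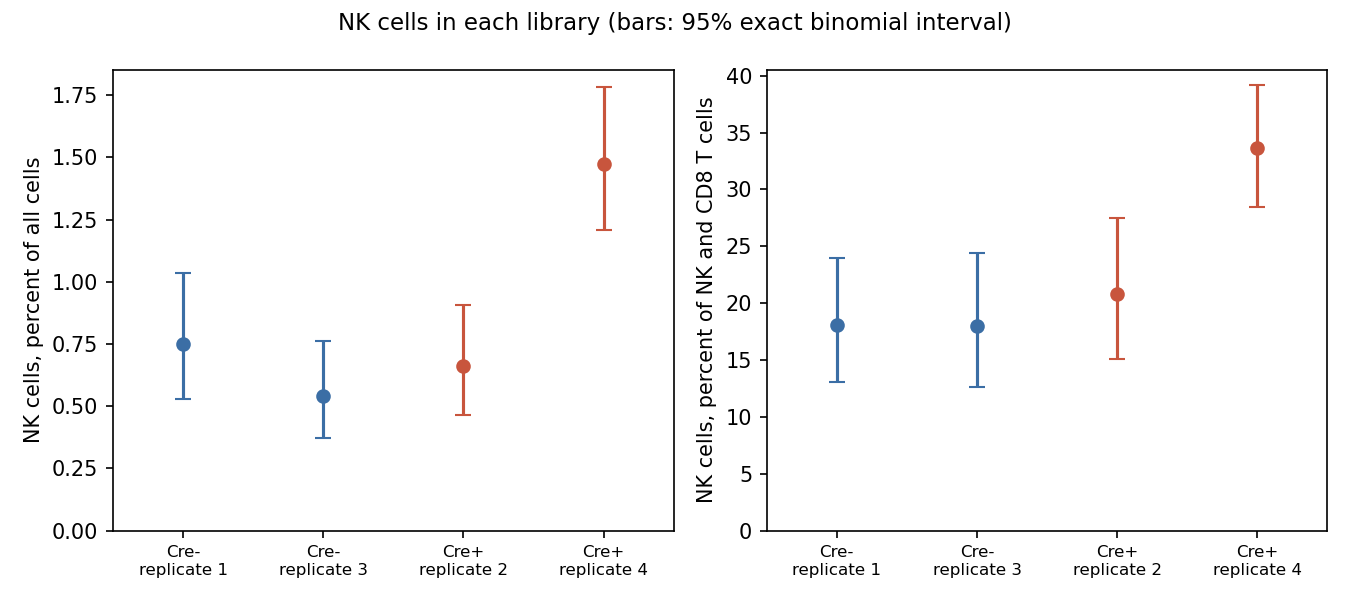
NK cells in each library as a percent of all cells (left) and of NK and CD8 T cells together (right); points are libraries and bars are 95% exact binomial intervals. Cre+ replicate 4 lies highest in both panels, at 1.47% and 33.7%, and the other 3 libraries lie between 0.541% and 0.752% and between 18.0% and 20.8%.

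NK cells were then compared with CD8 T cells of the same mice, over sums of counts with the mouse as a block. Of 9067 genes tested, 301 differed at an adjusted p of 0.05 in the edgeR quasi-likelihood test (3.32% of genes), 143 higher in NK cells (1.58%) and 158 lower (1.74%). The genes of the gate were not tested. For 102 of the higher and 134 of the lower genes the 4 NK sums did not overlap the 4 CD8 T sums. Overlap was not counted over all genes tested, and genes that were not called, such as Runx3 and Ctsc, did not overlap either. With 1 mouse left out, 115, 250, 183 and 171 genes differed (without Cre- 1, Cre- 3, Cre+ 2 and Cre+ 4). The rule was not blind to NK genes in T cells: 213 of the 662 CD8 T cells also held 2 or more UMIs of the NK gate genes (52, 19, 44 and 98 per library), and Klre1 in CD8 T cells was 87.1, 62.8, 115 and 128 CPM against 409, 392, 424 and 462 CPM in NK cells.

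Of the 12 genes named as highest in NK cells by their fitted difference, Khdc1a came first and 5 encode Klr receptors (Klra4, Klra8, Klri2, Klrb1b and Klrb1f). Klra4 and Klra8 encode the activating receptors Ly49D and Ly49H, close copies of one another, so that counts of either copy are uncertain where a read fits both. Klra4 was at 363, 244, 448 and 122 CPM in NK cells and at 0, 0, 0 and 0.887 CPM in CD8 T cells, where 3 UMIs were counted in all. Klra8 was at 163, 118, 270 and 107 CPM in NK cells and at 0, 2.07, 0 and 0 CPM in CD8 T cells. The groups were far apart for both genes. Over all cells of a class the ratio was 598 for Klra4 (95% counting interval 204 to 2905) and 388 for Klra8 (132 to 1889), with edgeR adjusted p of 0.000280 for Klra4 and 0.000608 for Klra8. All 3 CD8 T UMIs of Klra4 came from Cre+ replicate 4 and all 3 of Klra8 from Cre- replicate 3, so that each ratio rests on 1 library. The 250 bases before the start of each gene are shown because the pair moved together and shares promoter sequence. They are RefSeq sequences of build GRCm38.p6, minus strand, at chr6:130067272-130067521 for Klra4 and chr6:130129899-130130148 for Klra8, with the longest run that is identical in both in capitals. Of 249 aligned bases 212 were identical (85.1%), and the longest identical run was 27 bases.
Klra4: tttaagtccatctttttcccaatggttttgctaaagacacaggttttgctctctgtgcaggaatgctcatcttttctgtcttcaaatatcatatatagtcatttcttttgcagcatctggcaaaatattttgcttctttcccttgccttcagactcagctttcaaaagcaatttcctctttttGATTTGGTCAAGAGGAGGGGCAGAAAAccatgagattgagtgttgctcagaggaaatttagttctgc
Klra8: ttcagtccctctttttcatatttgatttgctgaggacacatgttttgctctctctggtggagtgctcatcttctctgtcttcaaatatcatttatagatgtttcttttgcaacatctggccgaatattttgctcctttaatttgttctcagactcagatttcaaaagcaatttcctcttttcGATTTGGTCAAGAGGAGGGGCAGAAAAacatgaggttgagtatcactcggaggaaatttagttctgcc

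Other receptors of the family followed. Klri2, a lectin-like partner of Klre1, was at 113, 139, 156 and 112 CPM in NK cells against 0.979, 0.690, 1.25 and 1.48 CPM in CD8 T cells. Klrb1b, an inhibitory NKR-P1 receptor, was at 340, 194, 239 and 171 CPM against 5.87, 4.83, 6.89 and 5.32 CPM. The log2 differences were 6.75 ± 0.24 for Klri2 and 5.40 ± 0.19 for Klrb1b (SE, 4 mice, higher in NK cells in 4 of 4), with an edgeR adjusted p of 3.04e-05 for Klrb1b. Klrb1f, an activating receptor of the same group, had a log2 difference of 3.36 ± 0.22. Klrk1 (NKG2D), shared with activated CD8 T cells, was at 430, 455, 572 and 322 CPM in NK cells and at 108, 154, 143 and 115 CPM in CD8 T cells, a log2 difference of 1.85 ± 0.13. The CD94 gene Klrd1 differed by 1.45 ± 0.11 and its partner Klrc1 (NKG2A) by 1.44 ± 0.16. All of these were lower in the T cells of every mouse.

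Of 12 activating receptors listed, all tested, 5 were higher in NK cells (Klrk1, Cd244a, Klrc2, Klra4 and Klra8) and none lower, with a median log2 difference of 0.66 against -0.01 over all genes tested. Of 15 inhibitory receptors tested, 6 were higher (Klra9, Klrc1, Klrd1, Klri2, Klrb1b and Lilrb4a, of which Klri2 has no inhibitory motif of its own and is known to pair in an activating receptor) and 1 was lower, the PD-1 gene Pdcd1, with a median of 1.06. Most of these receptors lie in 1 stretch of chromosome 6. Between Klrb1a and Klra1 in RefSeq order lay 22 tested genes, of which 11 were higher in NK cells and 2 lower, against 142 higher and 153 lower of 8904 tested genes with a position. The 2 lower ones were Cd69, an early activation marker that retains lymphocytes in tissue, and Klra6, an inhibitory Ly49 gene.

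Of 13 signaling adaptors tested, 4 were higher and 2 lower in NK cells, with a median of 0.32. Tyrobp, the adaptor of activating NK receptors, was at 1553, 1813, 1829 and 2035 CPM in NK cells and at 420, 324, 345 and 459 CPM in CD8 T cells. Its log2 difference was 2.32 ± 0.11, with an edgeR adjusted p of 0.000128. Fcer1g, the Fc receptor gamma chain, differed by 1.53 ± 0.10, and Sh2d1b1 (EAT-2) and the kinase Syk were also higher in NK cells. Lat and Cd247, adaptor and zeta chain of the T cell receptor, were lower in NK cells, Lat at 27.6, 23.6, 26.3 and 25.3 CPM against 155, 265, 202 and 158 CPM. Hcst (DAP10), the adaptor of NKG2D, was lower in 4 of 4 mice at -0.47 ± 0.11 and did not pass (edgeR adjusted p = 0.0741), nor did Zap70, Lcp2 and Vav1.

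Killing genes differed in both directions. Prf1 (perforin, which opens the target membrane) was at 352, 176, 235 and 273.96 CPM in NK cells and at 33.8, 62.1, 35.1 and 19.8 CPM in CD8 T cells, a log2 difference of 2.98 ± 0.37 with an edgeR adjusted p of 0.00705 (0.0516 without Cre- replicate 1). Gzmc (granzyme C) was at 6860, 573, 1611 and 12497 CPM against 111, 106, 45.1 and 608 CPM. It was higher in NK cells in all 4 mice, with a log2 difference of 4.62 ± 0.57, although the lowest NK sum lay below the highest CD8 T sum. Gzmk (granzyme K) ran the other way, at 0, 0, 0 and 3.04 CPM in NK cells and at 68.0, 139, 75.2 and 21.0 CPM in CD8 T cells, with an edgeR adjusted p of 0.0131 that was 0.0641 without Cre- replicate 1. Gzma differed by 1.98 ± 0.51, higher in NK cells in 4 of 4 mice, and missed the threshold (edgeR adjusted p = 0.0974), but passed it with the stricter gate (0.0243), without MHC class II-high and collagen-high cells (0.00639), without Cre+ replicate 4 (0.0386, with a smaller difference of 1.33), with no low count filter (0.0167) and in DESeq2 (0.0409). Gzmb missed it as well, at 0.30 ± 0.23 (edgeR adjusted p = 0.669). Serpinb9 and Serpinb6b, serine protease inhibitors of which the first blocks granzyme B, were higher in NK cells by 1.73 ± 0.16 and 1.85 ± 0.19. Of 20 granule genes tested, 6 were higher (Gzmc, Prf1, Srgn, Ctsw, Serpinb9 and Serpinb6b) and 1 was lower (Gzmk), with a median of 0.54.

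Among 14 secreted factors tested, Xcl1 and Tgfb1 were higher in NK cells and none was lower. Xcl1 is the chemokine that attracts cross-presenting dendritic cells. It was at 2063, 2147, 2702 and 2564 CPM in NK cells and at 598, 382, 981 and 1824 CPM in CD8 T cells, and the groups did not overlap. The log2 difference was 1.65 ± 0.28, with an edgeR adjusted p of 0.0235 that was 0.143 without Cre- replicate 1 and 0.0832 without Cre+ replicate 2. Ifng (0.49 ± 0.46), Ccl3 (0.37), Ccl4 (0.43) and Ccl5 (-0.83 ± 0.21, edgeR adjusted p = 0.0933) did not pass the test. Ccl5 was lower in NK cells in 4 of 4 mice and passed under 5 of the alternatives, such as with other lineages left out (-1.18, edgeR adjusted p = 0.00722). Of 15 cytokine receptors tested, 3 were higher, namely Il2rb, the shared beta chain of the IL-2 and IL-15 receptors (1.33 ± 0.13), and the IL-18 receptor chains Il18r1 (1.08 ± 0.20) and Il18rap (2.28 ± 0.30). Il21r was lower, by a log2 difference of -0.81 ± 0.15.

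Of 24 transcription factors tested, 6 were higher in NK cells, Eomes and Tbx21 among them, and 2 were lower, with a median of 0.24. Eomes was at 108, 147, 115 and 56.7 CPM in NK cells and at 66.1, 82.1, 32.6 and 21.3 CPM in CD8 T cells. It was higher in all 4 mice while the groups overlapped, with a log2 difference of 1.28 ± 0.20 and an edgeR adjusted p of 0.0187. Tbx21 was at 106, 60.4, 91.0 and 69.9 CPM against 41.1, 44.9, 33.8 and 34.9 CPM, a log2 difference of 1.17 ± 0.20 with an edgeR adjusted p of 0.0237. Leaving out replicate 1, 2 or 4 lost both calls, with edgeR adjusted p of 0.0518 to 0.0850 for Eomes and 0.0859 to 0.144 for Tbx21. With upper limits on genes and UMIs Eomes differed by 0.85 (edgeR adjusted p = 0.0504). Id2, which sustains innate lymphocytes, and Irf8 were higher by 1.30 ± 0.21 and 2.90 ± 0.42. Bcl11b, a factor of T cell commitment, differed by -3.52 ± 0.26. Bhlhe40 and Nr4a3 were the other higher ones and Ikzf2 the other lower one, whereas Nfil3 (0.77 ± 0.18), Runx3 (0.49 ± 0.13) and Tox (-0.58 ± 0.19) did not pass.

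The DNA half-site that T-box factors such as T-bet and Eomes bind was looked for in promoters as the letters TCACAC, or GTGTGA on the other strand. In the 250 bases before the start it was present in 15 of 113 promoters of genes higher in NK cells (13.3%) and in 15 of 115 of genes lower (13.0%). It was present in 8.76% of the 7234 promoters of tested genes and in 12.2% of all 27025 promoters of the RefSeq table. The RUNX core letters ACCACA, or TGTGGT on the other strand, were present in 15.9%, 15.7%, 10.5% and 14.2% of these sets, so that higher and lower genes held either motif at much the same share. A match of these letters is a description and not a bound site. The Xcl1 promoter is shown because Xcl1 was a called gene with a match, at 187 bases before its start, in capitals (RefSeq, GRCm38.p6, chr1:164935523-164935772, minus strand).
Xcl1: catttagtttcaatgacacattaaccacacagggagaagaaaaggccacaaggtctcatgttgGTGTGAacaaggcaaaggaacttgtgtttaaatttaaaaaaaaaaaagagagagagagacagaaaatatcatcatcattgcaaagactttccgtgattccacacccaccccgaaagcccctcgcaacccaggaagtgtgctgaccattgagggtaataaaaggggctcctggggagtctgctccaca

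Homing genes differed in both directions. The chemokine receptor Ccr2 was at 304, 310.1, 299 and 158 CPM in NK cells and at 41.1, 100.1, 25.1 and 24.0 CPM in CD8 T cells, a log2 difference of 2.77 ± 0.29. Itga2 (CD49b), the integrin of conventional NK cells, was higher by 2.28 ± 0.26, and Itgax was higher as well. Cxcr6, a receptor of tissue-resident lymphocytes, was at 36.8, 39.4, 57.4 and 10.1 CPM against 139, 229, 226 and 211 CPM, and S1pr1, the receptor for exit into lymph, was at 2.30, 7.88, 2.39 and 0.506 CPM against 35.7, 49.0, 38.8 and 17.7 CPM. Cx3cr1 (-2.66 ± 0.54) and Cd69 (-0.65 ± 0.13) were lower too, near the threshold (edgeR adjusted p = 0.0462 and 0.0426). Leaving out any 1 mouse lost the call of Cd69, with an edgeR adjusted p of at least 0.0883, and leaving out replicate 1, 2 or 4 lost that of Cx3cr1, with at least 0.0826. The difference of Cx3cr1 was -1.44 (edgeR adjusted p = 0.140) with other lineages left out and -1.78 (0.178) with upper limits on genes and UMIs. Itga1 did not pass the test (0.37 ± 0.27). Of 20 homing genes tested, 4 were higher and 4 lower, with a median of 0.09.

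Genes that type I interferon induces were lower in NK cells. All 16 that were tested had a negative log2 difference, as did 4646 of all 9067 genes. Of the 16, 3 passed the threshold as lower (Bst2 and Ifi27l2a among them), against 158 of 9067 (1.74%), and none as higher. The median was -1.0 against -0.01 over all genes. The CD8 T cells, unlike the NK cells, had no limit on C1q or epithelial genes. The part of cells of other lineages in these levels was not tested. Ifi27l2a was at 113, 116, 57.4 and 84.1 CPM in NK cells and at 449, 718, 516 and 815 CPM in CD8 T cells. The summed level of the list was 543, 670.1, 771 and 710.0 CPM in NK cells and 1674, 1803, 1633 and 1937 CPM in CD8 T cells, without overlap. Cell cycle genes (0 called of 18, median -0.06) and immediate early genes (0 called of 16, median -0.09) gave no call, with 1350 genes below an unadjusted p of 0.05 over the whole table.

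Genes of the T cell receptor complex were lower in NK cells, a direction tied to the rule, which kept Cd3 low in NK cells and high in T cells. Trac, the alpha chain constant region, was at 6.90, 13.1, 16.8 and 6.58 CPM in NK cells and at 447, 531, 481 and 440.4 CPM in CD8 T cells. Cd6 and Themis, a T cell surface protein and a signaling protein of thymocytes, had no UMI in any NK sum, which allows up to 0.935 CPM (3 UMIs over all NK cells). They were at least 103-fold and at least 60.9-fold lower than in CD8 T cells, where Cd6 was at 84.2, 114, 117 and 86.4 CPM. Tcrg-C2, a gamma chain constant region, had 1 UMI in NK cells against 1803 UMIs in CD8 T cells. Of 15 T cell genes tested, 9 were lower and none higher, with a median of -2.45 that was the same with genes at 0 set to their bound. In the other direction Khdc1a, a gene of the KH-domain family, was at 52.9, 55.2, 28.7 and 76.0 CPM in NK cells and had no UMI in CD8 T cells, at least 181-fold higher in NK cells over all cells.

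Several of the lowest genes in NK cells are epithelial. Lcn2 was at 73.6, 94.6, 98.1 and 20.3 CPM in NK cells and at 2861, 1150, 1611 and 323 CPM in CD8 T cells, and Aqp5, Cldn7, Clu and Acta2, a smooth muscle and myoepithelial actin, were in the same list. The CD8 T rule set no limit on epithelial or C1q genes. Of the 662 CD8 T cells, 34 had 10 or more epithelial gate UMIs per 10000 and 31 had 10 or more C1q UMIs. The 10 epithelial and milk markers summed to 12466, 3801, 4412 and 1851 CPM in CD8 T cells and to 665, 799, 541 and 1116 CPM in NK cells. The 7 macrophage markers summed to 3377, 2486, 949 and 1552 CPM in CD8 T cells, above the NK values given earlier. With cells of other lineages left out of both classes, 477 genes differed, 258 higher and 219 lower in NK cells, and 196 of them were among the 301. The difference of Lcn2 was then -0.88 in place of -4.13 and did not pass (edgeR adjusted p = 0.231).

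**Figure D2:**
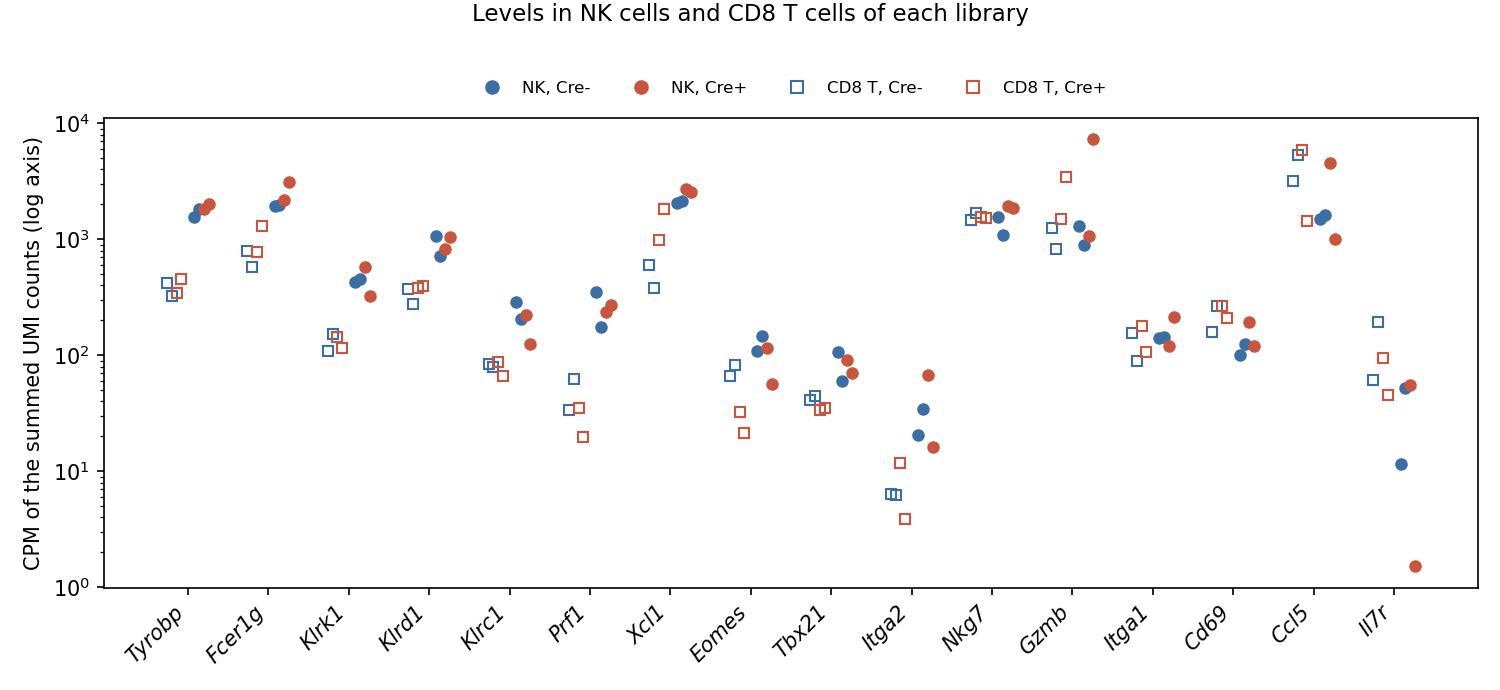
Levels of 16 genes in NK cells (filled circles) and CD8 T cells (open squares) of each library, as CPM of summed UMI counts on a log axis, colored by genotype. Tyrobp, Fcer1g, Klrk1, Klrd1 and Prf1 do not overlap between the classes, whereas Gzmb and Itga1 do.

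NK cells varied among themselves in Eomes and Itga1. An Eomes UMI was found in 45.9%, 46.9%, 45.9% and 39.0% of NK cells, and in 10.8%, 12.5%, 18.9% and 5.71% after thinning each cell to 1000 UMIs. The 9828 epithelial cells, chosen by 10 or more Epcam, Krt8 and Krt18 UMIs per 10000 and no NK gate or Cd3 UMI, should lack it and had an Eomes UMI in 0.251%, 1.04%, 0.582% and 0.0711% of cells at the depths given above, so that these NK shares lay above the background. An Itga1 UMI was found in 48.6%, 40.6%, 51.4% and 77.1% of NK cells (5.41%, 18.8%, 18.9% and 15.2% when thinned) and in 7.60%, 11.998%, 6.99% and 5.55% of epithelial cells. Of the 211, 45 had UMIs of Eomes alone, 45 of both, 86 of Itga1 alone and 35 of neither, at median depths of 6752, 18214, 16444 and 8145 UMIs. The cells with UMIs of both or of Itga1 alone were thus the deeper ones. The label therefore covers cells with no Eomes UMI, and no name was given to the sets.

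Other genes were read in the 90 members with an Eomes UMI and the 121 without, as a description with no test. Prf1 was higher with Eomes in every library, at 658, 279, 498 and 495 CPM against 140.1, 61.1, 63.2 and 119 CPM. Klrg1, a receptor of mature NK cells, was at 61.9, 29.9, 66.8 and 119 CPM with Eomes and at 0, 16.7, 27.7 and 34.5 CPM without. The order was opposite for Cxcr6, at 11.3, 0, 12.1 and 0 CPM with Eomes and 54.5, 83.3, 86.9 and 17.2 CPM without. Cd200r1, at 11.3, 4.99, 6.07 and 3.68 CPM with Eomes against 31.1, 22.2, 67.2 and 39.6 CPM without, and Il7r, the IL-7 receptor chain, at 5.63, 0, 0 and 0 CPM against 15.6, 111, 90.9 and 2.59 CPM, were also lower with Eomes in all 4 libraries. Inpp4b kept this order in each library as well. Itga1 and Tnfsf10 did not, being higher with Eomes in Cre- replicate 3 (165 against 122 CPM and 64.8 against 55.5 CPM) and lower in the other libraries. Itga2 was higher with Eomes in all 4 libraries, by the least in Cre+ replicate 4 (19.6 against 13.8 CPM). Gzma was not in 1 order, being 2189, 5222 and 7661 CPM with Eomes against 1121, 2538 and 1679 CPM without in the first 3 libraries, but 14698 against 21646 CPM in Cre+ replicate 4.

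**Figure D3:**
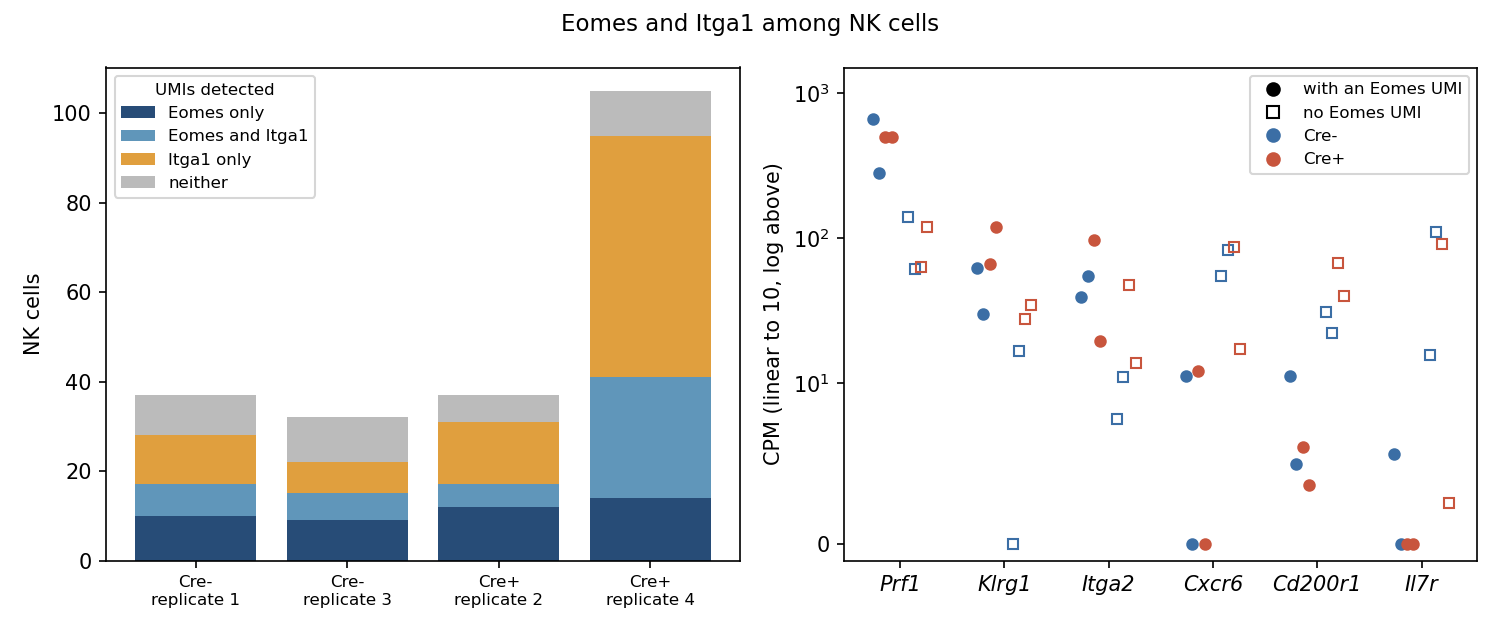
Left, number of NK cells of each library with UMIs of Eomes only, of both Eomes and Itga1, of Itga1 only or of neither; right, CPM of 6 genes in the members with (circles) and without (squares) an Eomes UMI, on an axis that is linear to 10 and logarithmic above. Prf1 lies higher with Eomes and Cxcr6 lies higher without it in each of the 4 libraries.

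Granzyme levels were highest in 1 library. Gzma was at 1557, 3952, 4038 and 18780 CPM in NK cells, and Gzmb at 1307, 896, 1060.3 and 7333 CPM. For both genes Cre+ replicate 4 was the highest by far. Gzmc was at 6860, 573, 1611 and 12497 CPM, with Cre- replicate 1 second. Prf1 was at 352, 176, 235 and 273.96 CPM and did not follow them. The 22 granule genes summed to 15829, 10585, 13066 and 45158 CPM in NK cells and to 7186, 7126, 7971 and 9845 CPM in CD8 T cells. In NK cells Gzmc led the sum of Cre- replicate 1 and Gzma led the others. CD8 T cells of Cre+ replicate 4 were also the highest of the 4 libraries for Gzmb, at 1250, 821, 1484 and 3427 CPM, and for Gzmc, at 111, 106, 45.1 and 608 CPM, but not for Gzma, at 982, 1065, 1725 and 1169 CPM. Tcrg-C1, a T cell receptor gamma chain constant region, was at 2.30, 5.26, 26.3 and 168 CPM in NK cells, highest in the same library, and its part in the granzyme levels was not tested. Its log2 difference, Cre+ minus Cre-, was 4.81 ± 1.15 (edgeR adjusted p = 0.519).

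The granzyme level of that library was spread over its cells. The median NK cell held 0, 7.72, 18.4 and 146 Gzma UMIs per 10000 and 3.14, 0, 6.95 and 61.3 Gzmb UMIs per 10000. Gzmc had a median of 0 in the other 3 libraries and of 69.0 in Cre+ replicate 4. A Gzmb UMI was found in 59.5%, 37.5%, 75.7% and 98.1% of NK cells, and in 35.1%, 18.8%, 40.5% and 92.4% after thinning to 1000 UMIs. Epithelial cells had a Gzmb UMI in 0.585%, 0.586%, 1.08% and 6.62% of cells, and in 0%, 0.250%, 0% and 1.25% after thinning, and this background was highest in the same library. The other libraries' NK shares also lay above it.

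**Figure D4:**
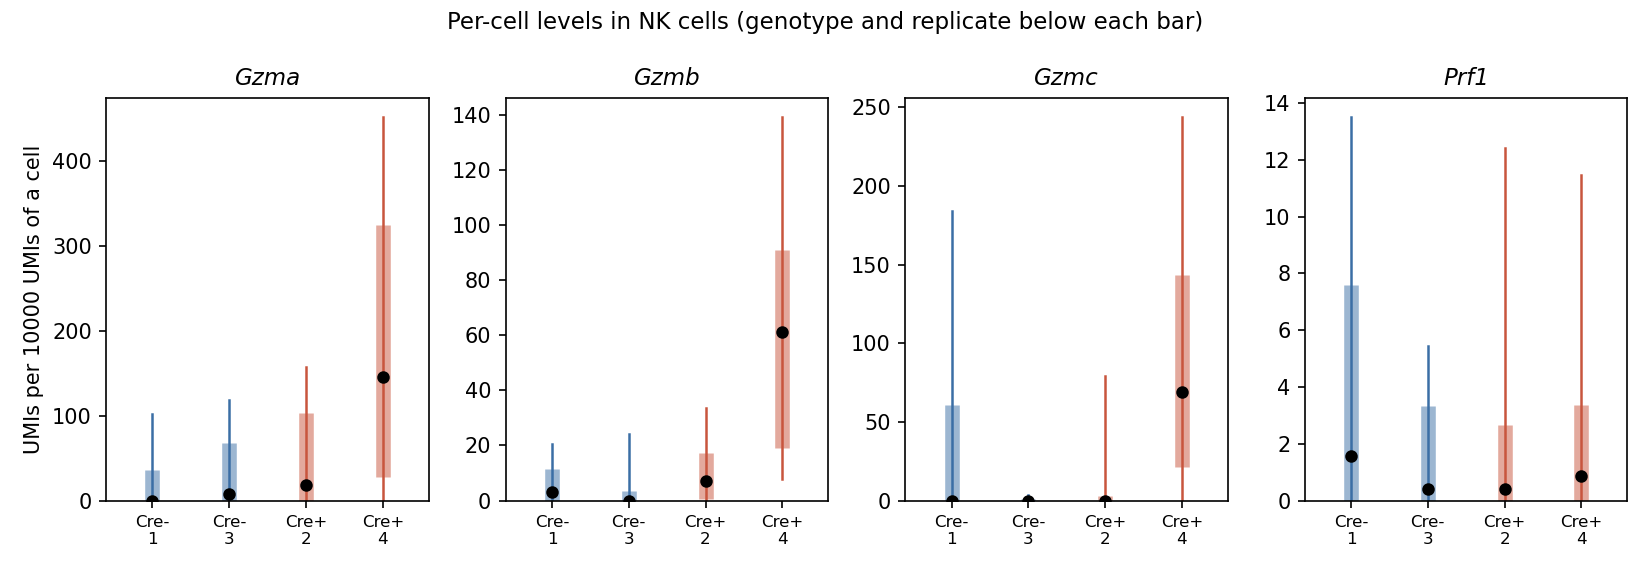
Per-cell levels of granule genes in NK cells, in UMIs per 10000 UMIs of a cell, for each library; black points are medians, thick bars the middle 50% of cells and thin lines the 10th to 90th percentile. The median of Gzma is 146 in Cre+ replicate 4 and at most 18.4 in the other libraries.

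No gene in NK cells passed the test between genotypes. Of 5312 genes tested, 0 (0.0%) differed between Cre+ and Cre- at an adjusted p of 0.05 in the edgeR quasi-likelihood test, 248 had an unadjusted p below 0.05, and DESeq2 called 39 (7 higher and 32 lower in Cre+). Gzma had a log2 difference, Cre+ minus Cre-, of 2.13 ± 0.79 (edgeR adjusted p = 0.926), Gzmb of 2.02 ± 0.85 (0.989) and Klrg1 of 1.28 ± 0.43 (0.859). Gzma, Gzmb and Klrg1 were higher in Cre+ on average. For Gzmb the genotypes overlapped, since Cre+ replicate 2 lay between the Cre- libraries, and for Gzma Cre+ replicate 2 and Cre- replicate 3 differed little. Without Cre+ replicate 4 the difference was 0.46 for Gzma, -0.15 for Gzmb and 0.71 for Klrg1. Without Cre+ replicate 2 Gzma (2.92, edgeR adjusted p = 7.51e-09) and Gzmb (2.88, 3.81e-10) passed the threshold. With all 4 mice and no low count filter they passed too (Gzma 2.21, edgeR adjusted p = 4.45e-06, and Gzmb 2.09, 2.12e-05). Both calls thus depend on the mouse left out and on the filter. The fit without Cre+ replicate 2 compares a lone Cre+ library with 2 Cre- libraries and assumes that it varies as they do.

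Several other genes were at their lowest NK level in Cre+ replicate 4. Ccl4, which attracts lymphocytes and macrophages, was at 893, 1156, 1254 and 250.2 CPM, Ifng at 101.2, 68.3, 153 and 24.8 CPM, and Ccl5 at 1493, 1611, 4581 and 1006 CPM. Cd27, a marker of less mature NK cells, was at 59.8, 68.3, 76.6 and 7.09 CPM, and Il7r at 11.5, 52.6, 55.0 and 1.52 CPM. In all 5 genes the Cre+ libraries lay on either side of the Cre- libraries. Without the members high in MHC class II or collagen genes this held for Ccl5 alone, and Ccl4, for example, was at 1030, 1698, 1547 and 252 CPM, still lowest in Cre+ replicate 4. Ccl4, Ifng, Ccl5, Cd27 and Il7r did not pass the genotype test.

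Cell cycle genes were given by their list. In NK cells the 18 genes summed to 2158, 2152, 3315 and 4043 CPM, higher in both Cre+ libraries than in both Cre- libraries. Of the 18, 15 had a positive log2 difference (Cre+ minus Cre-), against 2714 of all 5312 genes tested, and 0 were called. The median was 0.96 against 0.01 over all genes tested. The 18 were read in the same sums, so their directions are not separate observations. Without the members high in MHC class II or collagen genes the sums were 2239, 3099, 3968 and 4053 CPM. Birc5, which acts at the chromosomes of dividing cells, was at 50.6, 44.7, 129 and 174 CPM, with a log2 difference of 1.72 (edgeR adjusted p = 0.337).

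The genes nearest to the threshold between genotypes, chosen after their values were seen, included MHC class II genes. H2-Ab1, an MHC class II chain of antigen-presenting cells, was at 987, 3629, 120 and 30.4 CPM in NK cells, a log2 difference of -5.01 ± 0.88 (edgeR adjusted p = 0.315). Without the 15 members high in MHC class II or collagen genes, which were left out by an alternative added after seeing the data, the difference was 0.67 (edgeR adjusted p = 0.958). Since H2-Ab1 itself helped to choose most of these members, the loss of its difference was set by that choice. The chaperone gene Hspa1a was at 145, 229, 11.97 and 25.8 CPM, with a difference of -3.09 ± 0.46 that was -2.02 without them. Krt83, a hair keratin gene, was at 66.7, 92.0, 9.57 and 2.03 CPM, with a difference of -4.24 ± 0.63 (edgeR adjusted p = 0.262) and of -4.26 without those members. Krt83 was therefore lower in both Cre+ libraries with or without them, but past the threshold in neither of these fits. Its difference was -5.06 without Cre+ replicate 2 and -3.10 without Cre+ replicate 4, in fits that each leave a lone Cre+ library.

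The last comparison asked whether the difference between NK and CD8 T cells itself differed by genotype. Of 9067 genes, 0 (0.0%) passed the edgeR quasi-likelihood test of this interaction, 385 had an unadjusted p below 0.05 and DESeq2 called 28. Klrg1 had an interaction of 2.48 ± 0.98 on the log2 scale and Prf1 of 0.81 ± 0.68, both with an edgeR adjusted p of 1. That of Ccl5 was 0.96 ± 0.23 (edgeR adjusted p = 0.832). It passed with upper limits on genes and UMIs (0.0431), other lineages left out (0.0114), without Cre- replicate 1 (0.0135), with no low count filter (0.00110) and in DESeq2 (0.0169). With 2 mice a genotype this test rests on how the difference between NK and CD8 T cells varied among these mice only.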

How the data were processed

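The authors deposited UMI counts per gene and barcode for 4 libraries of the 10x Genomics 3' v3 kit, made with Cell Ranger 6.1.2 for replicates 1 to 3 and with Cell Ranger 4 for Cre+ replicate 4, per the file headers. For replicates 1 to 3 each deposited barcode had at least 500 UMIs. The 2582424 barcodes of Cre+ replicate 4 were brought to the same limit of 1000 UMIs and 20% mitochondrial UMIs as the others. The files name mouse genes, while the submitters' processing notes name a human build, so the mouse build of the counts is uncertain and no coordinate was taken from them. Doublets were not removed, since no caller was run.

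The cells, gene lists and core genes were chosen with earlier results of these data known. Counts were summed per mouse and class and tested with the quasi-likelihood test of edgeR 4.0.16 (TMM factors, filterByExpr, Benjamini-Hochberg adjustment over all genes tested, threshold 0.05) in R 4.3.3, with DESeq2 1.42.0 as an alternative. NK cells and CD8 T cells of a mouse were blocked by mouse, since both sums come from the same animal. The 14 gate genes stayed in library sizes and out of the tests. The tests were also run on simulated counts, with the same spread set for every gene and no mouse effect. Differences between mice were thus not part of that check. Shares were compared by exact permutation tests in scipy 1.17.1, with exact (Clopper-Pearson) intervals at 95%. P-values between genotypes rest on the spread between these mice. Those between NK and CD8 T cells and those of the interaction rest on the spread of the within-mouse difference. The edgeR fits also share estimates of spread across genes.

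Named genes were a core list and, for each comparison, up to 12 called genes a direction with the largest log2 difference, the same direction in all 4 mice and a mean of at least 50 CPM in the higher class. Of each list the called members were named after their values were seen. Some genes are not reported here. Alternatives changed the depth limit, upper limits on genes and UMIs, the gate, other lineages, scaling, the low count filter, the block and the mice.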

Additional observations from a re-analysis of the deposited data

How the results depend on the processing

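Both share comparisons kept their direction in the 7 ways of choosing cells. With 1 mouse left out, the difference in the NK share of all cells, Cre+ minus Cre-, ranged from 0.0134 to 0.828 percentage points and that of NK among NK and CD8 T cells from 2.77 to 15.6 points. The count of genes between NK and CD8 T cells, 301, was 620 with the stricter gate (3 UMIs and no Cd3), 477 with other lineages left out, 526 with MHC class II-high and collagen-high cells left out (chosen after seeing the data), 556 with DESeq2 and 489 with no low count filter. It ranged from 115 to 250 with 1 mouse left out. Between genotypes in NK cells the count, 0 in the edgeR test with 248 genes at an unadjusted p below 0.05, was 32 with upper limits on genes and UMIs, 22 with other lineages left out, 1 with the stricter gate, 39 with DESeq2 and 294 with no low count filter. With 1 mouse left out it ranged from 0 to 307, the highest without Cre+ replicate 2 and 37 without Cre+ replicate 4. The interaction, 0 with 385 genes at an unadjusted p below 0.05, was 17, 8, 28 and 118 with upper limits, other lineages left out, DESeq2 and no filter, and 0 to 73 with 1 mouse left out. For each of these counts the cause was not tested.

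The mouse pairs NK and CD8 T sums because both come from the same animal. With no replicate block, 206 genes differed, of which 199 were among the 301, and the calls of Gzmc, Itga2, Acta2, Cd69 and Cx3cr1 were lost.

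Single values under an alternative were followed for the core list, and between NK and CD8 T cells also for the named genes. H2-Ab1, Hspa1a and Krt83 were not among them. Of 685 such values between NK and CD8 T cells, 620 kept their direction and side of the threshold and 6 turned. Between genotypes 267 of 311 kept them and 32 turned, and for the interaction 282 of 335 kept them and 47 turned. In the first, 23 passed the threshold only under the alternative and 36 no longer did, while 12 between genotypes and 6 for the interaction passed only under it. Those gained between NK and CD8 T cells were Gzma, Ccl5 (5 alternatives each), Il7r (6), Itgam (4) and Klrg1 (3). Those gained between genotypes came without Cre+ replicate 2 (Gzma, Gzmb, Klrg1 and Fcer1g higher, Ifng, Ccl3, Ccl4, Itgam and Cd27 lower in Cre+), without Cre+ replicate 4 (Ccl5 higher) or with no filter (Gzma and Gzmb). Those for the interaction were Ccl5 in 5 alternatives and Xcl1 with no filter. Those that turned are given as log2 values. With DESeq2, the Cre+ minus Cre- value was 0.014 for Ifng and the interaction value was -0.043 for Itga1. With MHC class II-high and collagen-high cells left out, the Cre+ minus Cre- value was -0.15 for Klrk1 and 0.32 for Adam17 and the interaction value was -0.13 for Tbx21, 0.34 for Itgam, -0.055 for Itga2, 0.57 for Cx3cr1 and -0.28 for Frmd8. With at least 5000 UMIs, the Cre+ minus Cre- value was 0.53 for Ifng and 0.0060 for Tbx21 and the interaction value was -0.067 for Itga2, -0.042 for Itga1 and 0.18 for Il7r. With no low count filter, the Cre+ minus Cre- value was 0.022 for Prf1 and the interaction value was -0.0024 for Itga1. With other lineages left out, the NK minus CD8 T value was -0.072 for Gzmb and -0.064 for Frmd8, the Cre+ minus Cre- value was 0.027 for Prf1 and the interaction value was 0.072 for Klrk1, -0.32 for Itga2, 0.14 for Tgfbr2 and -0.39 for Tyrobp. With the stricter gate, the Cre+ minus Cre- value was 0.58 for Ifng and -0.079 for Klrk1 and the interaction value was 0.31 for Itgam and -0.021 for Itga1. With upper limits on genes and UMIs, the NK minus CD8 T value was -0.038 for Frmd8, the Cre+ minus Cre- value was 0.058 for Ifng, 0.025 for Tbx21 and 0.061 for Adam17 and the interaction value was 0.053 for Klrk1, 0.13 for Itgam and -0.39 for Tyrobp. With upper quartile factors, the Cre+ minus Cre- value was -0.0073 for Klrk1.

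With 1 mouse left out, the NK minus CD8 T value ranged from -0.027 to 0.53 for Gzmb, -0.0019 to 0.82 for Ccl3 and -0.0050 to 0.30 for Adam17. The Cre+ minus Cre- value ranged from -0.15 to 2.88 for Gzmb, -0.43 to 0.57 for Prf1, -1.63 to 0.75 for Ifng, -1.89 to 0.20 for Ccl4, -0.48 to 1.47 for Ccl5, -0.39 to 0.42 for Tbx21, -0.32 to 0.28 for Klrk1, -0.60 to 1.201 for Itga2, -0.34 to 0.74 for Itga1, -3.01 to 0.17 for Cd27, -4.12 to 1.08 for Il7r, -0.52 to 0.18 for Tgfbr2 and -0.44 to 0.18 for Adam17. The interaction value ranged from -0.12 to 2.73 for Gzma, -0.65 to 1.00 for Gzmb, -0.14 to 1.79 for Prf1, -0.55 to 2.21 for Ifng, -1.41 to 0.026 for Ccl4, -0.22 to 0.75 for Tbx21, -0.31 to 0.17 for Klrk1, -1.18 to 1.204 for Itgam, -0.17 to 0.53 for Itga2, -0.89 to 0.76 for Itga1, -2.03 to 4.85 for Cx3cr1, -2.79 to 1.21 for Il7r, -0.37 to 0.22 for Tgfbr2, -0.21 to 0.34 for Tyrobp, -0.41 to 0.0054 for Fcer1g, -0.062 to 0.42 for Cd69, -0.29 to 0.33 for Frmd8, -4.95 to 0.97 for Rhbdf2 and -0.14 to 0.76 for Adam17. A fit with a lone library in a genotype assumes that it varies like the other libraries. The smallest NK sum held 380554 UMIs, and the part of depth in the genotype counts was not tested.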

Other observations

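Markers of conventional NK cells and of tissue-resident innate lymphoid cells were also counted between NK and CD8 T cells. Of 8 conventional NK markers tested, 5 were higher in NK cells in the edgeR test (Eomes, Itga2, Klra8, Klra4 and Klra9) and none was lower, with a median log2 difference of 2.23 against -0.01 over all genes. The summed level of all 10 listed markers in NK cells was 936, 783, 1273 and 509 CPM, led by Klra4 and lowest in Cre+ replicate 4, against 140, 180.1, 133 and 78.4 CPM in CD8 T cells. Of 12 tissue-residency markers tested, Rgs2, a regulator of G protein signaling, was higher (0.96 ± 0.13), Cxcr6 and Cd69 were lower, and the median was -0.01. Rgs2 was at 549.8, 344, 539 and 300.3 CPM in NK cells and at 246, 204, 270.02 and 206 CPM in CD8 T cells. The resident-cell markers Tnfsf10, Cd200r1 and Inpp4b did not pass the test.

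Single genes of other lists differed as well. Vegfa, which encodes a growth factor for blood vessels, was at 207, 147, 74.2 and 105 CPM in NK cells and at 16.6, 24.2, 20.05 and 33.7 CPM in CD8 T cells, a log2 difference of 2.51 ± 0.33 with an edgeR adjusted p of 0.00931. It was 1 of 13 hypoxia and glycolysis genes tested, none of the other 12 was called, and the lactate dehydrogenase gene Ldha had a difference of -0.01 ± 0.13. Tnfrsf9 (4-1BB), a costimulatory receptor of activated lymphocytes, was at 304, 110, 229.8 and 529.7 CPM in NK cells against 108, 68.3, 66.4 and 234 CPM, a log2 difference of 1.40 ± 0.18, and was highest in Cre+ replicate 4 in both classes. Of 4 genes tested of the list of FRMD8 and its partners, Frmd8 among them, none was called. Adam17, the protease that iRhoms traffic, was at 32.2, 39.4, 43.1 and 23.8 CPM in NK cells, and the iRhom2 gene Rhbdf2 at 4.601, 5.26, 0 and 4.56 CPM.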
